A study of Homo sapiens with 6 samples.

Results

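The genes described here make ribosomes: the subunits and initiation factors of RNA polymerase I and the nucleolar proteins that process ribosomal RNA and assemble both ribosomal subunits. They were measured in TF-1, a human erythroleukaemia line whose growth depends on a cytokine, carrying either the pEGFP control vector or human PRL-3, the tyrosine phosphatase encoded by PTP4A3. The set was a fixed list of 55 gene symbols, and a gene was measured by the brightest probe set that carried its symbol and no other. Of the 55 genes, 52 were measured, among 18377 genes in all. NOP56 and PPAN lay only on probe sets shared with other genes, no probe set was named GNL3, and these 3 are not counted here. The shared probe sets are described in the closing part.

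The comparison rests on 3 control arrays (1, 2 and 3) and 3 PRL-3 arrays (4, 5 and 6), and both lines grew in 90% RPMI and 10% fetal bovine serum with 5 ng/ml interleukin-3. The sources used here do not say whether a line was 1 clone or a pool, or whether replicate arrays came from separate cultures, so the p-values reflect array-to-array spread that may be purely technical. Values are log2 of the deposited intensity, and a difference is PRL-3 minus control on that scale, with limma's moderated standard error. A gene passed at an adjusted p under 0.05 (limma, Benjamini-Hochberg adjustment over all 18377 genes), and "rose" or "fell" is used of such genes alone. Probe sets differ in brightness for equal amounts of RNA, so levels are compared between arrays, not between genes; a percentile of intensity among all genes is given in places as a rough guide only.

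RNA polymerase I transcribes the long precursor of the large ribosomal RNAs in the nucleolus. UBTF opens the ribosomal DNA, the TAF1 proteins of the selectivity factor mark its promoter, and RRN3 joins the polymerase to them. The precursor is then modified by small nucleolar ribonucleoproteins (snoRNPs), cut within the small subunit processome, and built into the 2 subunits in separate assembly lines. Growing blood progenitors and leukaemia cells depend on this pathway, and MYC is its best known transcriptional activator.

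Of the 52 measured genes 10 fell with PRL-3, 0 rose and 42 did not pass. The 10 make up 19.2% of the measured members; across all genes 3.11% were called lower and 4.58% higher. At an unadjusted p under 0.05 in limma, 18 members were lower and 2 higher, against 1765 (9.6%) and 1939 (10.6%) of all genes. A test with unequal variances, which shares no spread across genes, called 4 of all 18377 genes lower and 7 higher after adjustment. It called 0 members and 0 genes of every other list described here, which at so few calls says nothing about a list. The falls were modest, 1.27- to 1.63-fold, and no member reached 2-fold. They lay in RNA polymerase I (POLR1B, POLR1A), its cofactor UBTF, the snoRNP protein NOP58, the small subunit processome (UTP20, UTP14A, HEATR1, UTP4) and large subunit assembly (NIP7, RRS1). The median difference of the 52 genes was -0.133, against -0.0154 over all genes, and 38 of 52 (73.1%) were below 0, against 54.9% of all genes. In a fit limited to the 9188 genes whose mean intensity lay above the median, 9 of the 48 members kept were called lower, against 4.96% of the genes in that fit.

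**Figure D1:**
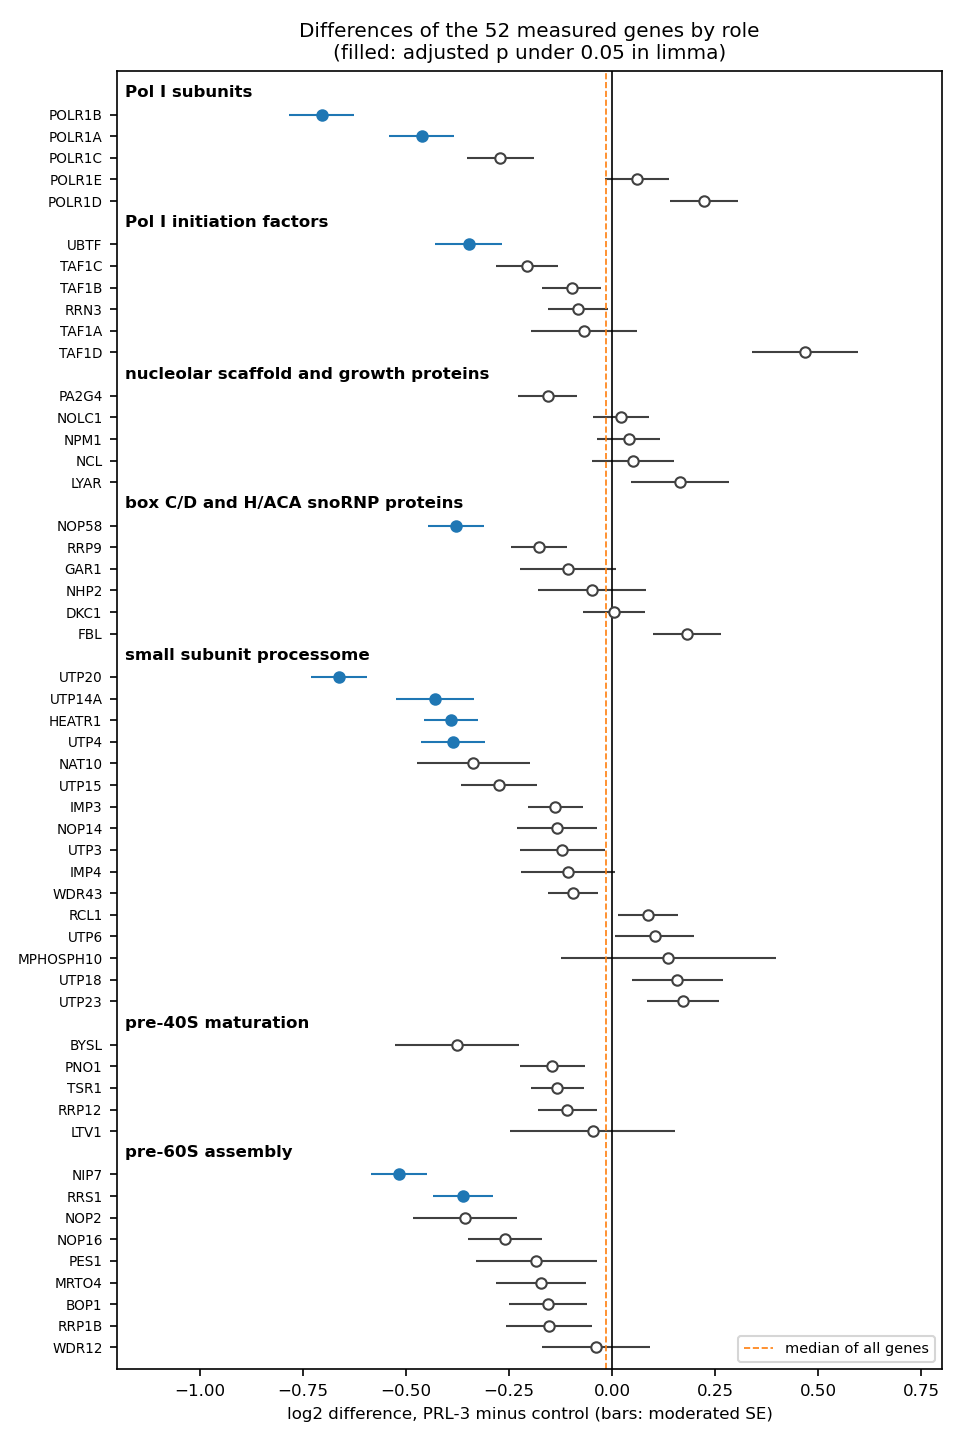
Log2 difference (PRL-3 minus control, x axis) with moderated standard error for each of the 52 measured genes, sorted within roles; filled points passed adjusted p 0.05 in limma. The 10 filled points run from -0.70 (POLR1B) to -0.35 (UBTF), and no filled point lies to the right of 0.

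Sequence before the start site is shown for 5 of the genes that fell, so that the searched motifs can be seen in place. Genes holding one of these motifs were taken first and then those with the largest difference, so the 5 do not represent the members in motif content. The RefSeq promoter table (GRCh38.p14) held 46 of the 55 genes. The windows are the 250 bases before the listed start, read 5′ to 3′ along the gene's strand, and capitals mark a motif that was searched for on both strands. The motifs were CACGTG, the E-box read by MYC and MAX; CTCGCGAG, the core of the element read by BANP; CCGGAAGT, read by ETS factors; and GCATGCGC, part of the NRF1 element. No 2 motifs overlap in the 5 windows shown.
POLR1B (GRCh38.p14, chr2:112541786-112542035, + strand): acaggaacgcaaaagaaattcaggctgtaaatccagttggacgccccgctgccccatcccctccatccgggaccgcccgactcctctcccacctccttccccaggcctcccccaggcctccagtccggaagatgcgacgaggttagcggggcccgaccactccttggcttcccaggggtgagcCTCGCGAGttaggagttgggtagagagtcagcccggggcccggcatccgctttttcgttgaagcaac
UTP20 (GRCh38.p14, chr12:101279855-101280104, + strand): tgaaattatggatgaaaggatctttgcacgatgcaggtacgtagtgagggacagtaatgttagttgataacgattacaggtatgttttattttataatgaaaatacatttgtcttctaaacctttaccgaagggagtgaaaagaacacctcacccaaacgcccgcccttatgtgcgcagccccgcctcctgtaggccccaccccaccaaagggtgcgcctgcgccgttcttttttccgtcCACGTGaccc
UTP14A (GRCh38.p14, chrX:129905914-129906163, + strand): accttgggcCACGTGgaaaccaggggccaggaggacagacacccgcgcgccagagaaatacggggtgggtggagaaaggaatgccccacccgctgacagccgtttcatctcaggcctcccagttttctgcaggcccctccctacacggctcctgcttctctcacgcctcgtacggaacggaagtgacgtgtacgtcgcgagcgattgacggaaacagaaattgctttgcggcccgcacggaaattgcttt
UTP4 (GRCh38.p14, chr16:69132399-69132648, + strand): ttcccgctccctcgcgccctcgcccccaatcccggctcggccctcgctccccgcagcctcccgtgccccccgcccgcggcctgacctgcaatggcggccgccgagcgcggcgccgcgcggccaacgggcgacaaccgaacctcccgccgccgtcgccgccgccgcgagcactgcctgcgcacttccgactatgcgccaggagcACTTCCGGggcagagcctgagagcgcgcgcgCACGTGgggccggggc
NIP7 (GRCh38.p14, chr16:69339522-69339771, + strand): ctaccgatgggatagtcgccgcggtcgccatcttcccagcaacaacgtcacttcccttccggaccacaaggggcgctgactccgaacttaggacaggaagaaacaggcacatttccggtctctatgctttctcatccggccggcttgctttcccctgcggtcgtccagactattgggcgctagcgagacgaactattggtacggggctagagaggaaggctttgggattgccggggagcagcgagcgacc

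In POLR1B the BANP core lay 67 to 60 bases before this start. The table held a second start of the gene, not shown, whose window held the ETS letters. The E-box lay 10 to 5 bases before the start in UTP20, 16 to 11 in UTP4 and 241 to 236 in UTP14A. UTP4 also held the ETS letters on the opposite strand, 47 to 40 bases before the start, and NIP7 held none of the 4 motifs. Some genes have several starts, which gave 57 windows for these genes and 35116 for all genes of the table, non-coding ones included. The E-box stood in 7 of 57 windows (12.3%) against 6.34% of all windows, the BANP core in 4 (7.02%) against 0.874%, the ETS letters in 7 (12.3%) against 3.42%, and the NRF1 letters in 2 (3.51%) against 2.63%. Counted by gene over all its starts, 3 of the 8 genes that fell and were in the table held the E-box. The ETS letters stood in 2 of the 8, the BANP core in 1 and the NRF1 letters in 0, and 4 held none of the motifs. Of all 46 members in the table, 7 held the E-box, 7 the ETS letters, 4 the BANP core and 2 the NRF1 letters. These are matches of letters, not measured sites, and they are given as a description. The motifs were chosen with earlier results of these data known.

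The 2 largest subunits of RNA polymerase I were both lower. POLR1B, the second largest subunit and part of the catalytic core (probe set 8044473), read 9.10, 9.01 and 8.89 in control arrays and 8.24, 8.37 and 8.27 in PRL-3 arrays. Every PRL-3 array lay below every control array, with 0.516 between the nearest values. The difference was -0.70 ± 0.0798 (log2, SE, n = 3 each; adjusted p = 0.00208, limma), or 1.63-fold lower. POLR1A, the largest subunit and the other part of the active centre, read 8.54, 8.59 and 8.39 in control and 7.96, 8.10 and 8.07 with PRL-3. Its groups also lay apart, at a difference of -0.46 ± 0.0793 (adjusted p = 0.0116, limma).

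The smaller subunits did not pass. POLR1C, an assembly subunit that RNA polymerase III shares, read 10.19, 10.29 and 10.03 in control and 9.90, 9.92 and 9.87 with PRL-3, a difference of -0.27 (adjusted p = 0.0931, limma). The groups did not overlap, but the gap of 0.109 was smaller than the control SD of 0.131. POLR1D, the partner of POLR1C in both polymerases, pointed the other way. It read 9.68, 9.70 and 9.52 in control and 9.86, 9.95 and 9.77 with PRL-3, a difference of 0.22 (adjusted p = 0.166, limma). POLR1E, a subunit of the heterodimer that helps initiation and elongation, differed by 0.06 ± 0.0771, with overlapping groups (8.51, 8.54 and 8.33 against 8.56, 8.49 and 8.51).

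Among the initiation factors UBTF, the architectural protein of active ribosomal DNA, fell. It read 9.33, 9.23 and 9.10 in control and 8.90, 8.93 and 8.79 with PRL-3, a difference of -0.35 ± 0.0813 (adjusted p = 0.0395, limma). This call was the most fragile of the 10: it held only without control 3 (adjusted p = 0.0234) among the 6 fits with 1 array left out, and missed the threshold with an intensity trend and robust variances (0.0616). RRN3, the growth-regulated bridge to the polymerase, read 8.38, 8.51 and 8.55 in control and 8.42, 8.43 and 8.35 with PRL-3, so the groups overlapped at a difference of -0.08 ± 0.0727. Pseudogenes of RRN3 share part of its sequence, so its level is uncertain.

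The 4 subunits of the selectivity factor did not pass and did not point one way. TAF1C lay lower in every PRL-3 array at -0.21 (adjusted p = 0.168, limma), while TAF1B (-0.10) and TAF1A (-0.07) overlapped. TAF1D read 9.76, 10.02 and 10.22 in control and 10.52, 10.29 and 10.60 with PRL-3, the largest positive difference of the 52 genes at 0.47 ± 0.129 (adjusted p = 0.0715, limma). TAF1D passed without control 3 (0.58, adjusted p = 0.0264) and without PRL-3 5 (0.56, adjusted p = 0.048). Its introns encode small nucleolar RNAs, and 6 further probe sets carry its symbol beside theirs, which are not used here for the gene.

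**Figure D2:**
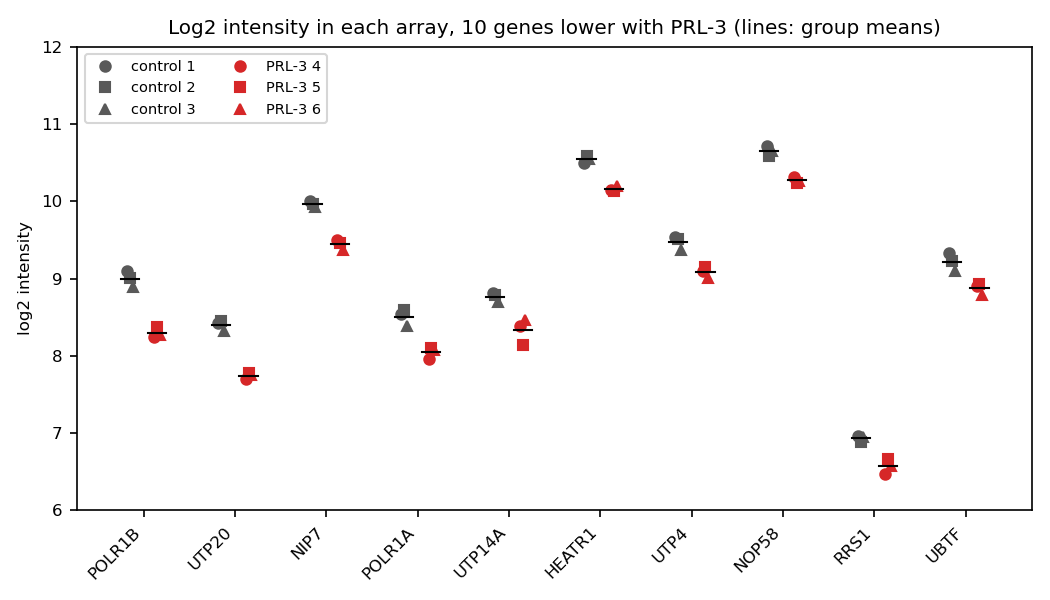
Log2 intensity (y axis) of the 10 genes that fell, 1 point per array, control in grey and PRL-3 in red, with a line at each group mean. In all 10 the 3 PRL-3 arrays lie below the 3 control arrays; POLR1B and UTP20 show the widest separation.

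None of the 5 nucleolar scaffold and growth proteins passed. NCL, nucleolin, which binds nascent ribosomal RNA, read 12.29, 12.39 and 12.52 in control and 12.54, 12.27 and 12.54 with PRL-3, a difference of 0.05 ± 0.0992. Both groups spanned nearly the same range. NPM1, nucleophosmin, a chaperone of ribosome assembly that is often mutated in myeloid leukaemia, differed by 0.04 ± 0.0759 (5.58, 5.43 and 5.59 against 5.49, 5.62 and 5.61). Its probe set lay at the 16.3 percentile of all genes, low for a gene known as strongly expressed, and whether it reads the main transcript was not tested. NOLC1, a chaperone of snoRNPs, and LYAR, a nucleolar growth protein, differed by 0.02 and 0.16, and PA2G4, the EBP1 protein that binds ribosomes, by -0.16 (adjusted p = 0.269, limma). PA2G4 alone of these 5 lay lower in every PRL-3 array. The group had 0 genes at an adjusted p under 0.05 and 0 at an unadjusted p under 0.05 in limma.

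The snoRNP proteins split. NOP58, a core protein of the box C/D particles that guide methylation of ribosomal RNA, fell: 10.71, 10.58 and 10.65 in control against 10.32, 10.24 and 10.26 with PRL-3. The difference was -0.38 ± 0.0681 (adjusted p = 0.0144, limma). FBL, fibrillarin, the methyltransferase of the same particles, pointed up, with 10.55, 10.69 and 10.72 in control and 10.86, 10.72 and 10.92 with PRL-3. Its groups were apart by only 0.000835, at a difference of 0.18 (adjusted p = 0.272, limma). Thus 2 proteins of 1 particle lay on opposite sides of 0, and the difference between them was not tested. NOP56, another box C/D protein, had no probe set of its own. The one it shares with SNORD56 differed by -0.37 (adjusted p = 0.0701, limma) and is not counted.

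RRP9, specific to the box C/D particle that starts small subunit processing, lay lower in every PRL-3 array at -0.18 (adjusted p = 0.19, limma). In the box H/ACA particles, which guide pseudouridylation, none of the 3 measured proteins passed in limma, with 0 at an unadjusted p under 0.05 in limma. DKC1, dyskerin, the pseudouridine synthase, read 11.67, 11.68 and 11.81 in control and 11.75, 11.63 and 11.79 with PRL-3, a difference of 0.00 ± 0.0753. A probe set that DKC1 shares with a small nucleolar RNA, SNORA56, differed by 1.51 and is not counted for the gene. GAR1 (-0.11) and NHP2 (-0.05) also overlapped. The second probe set of NHP2 differed by 0.00 ± 0.147, close to the first.

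The small subunit processome, the large particle that folds and cuts the precursor on its way to the small subunit, held 4 of the 10 falls among 16 genes. UTP20, a very large scaffold protein, read 8.42, 8.46 and 8.33 in control and 7.69, 7.77 and 7.75 with PRL-3. At -0.66 ± 0.0687 (1.58-fold lower, adjusted p = 0.00148, limma) it had the lowest adjusted p of the 52 genes, and its groups were 0.552 apart. HEATR1, another large scaffold, which also takes part in transcription of ribosomal DNA, read 10.49, 10.59 and 10.55 against 10.14, 10.13 and 10.20. Its difference of -0.39 ± 0.0655 (adjusted p = 0.0106, limma) came with the smallest spread among the 10, a pooled SD of 0.0435.

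UTP4, also called cirhin, belongs with HEATR1 to the subcomplex that binds first to the precursor. It read 9.53, 9.52 and 9.37 in control and 9.10, 9.15 and 9.00 with PRL-3, a difference of -0.39 ± 0.0774 (adjusted p = 0.0228, limma). UTP14A, which activates the helicase that releases the snoRNA, read 8.81, 8.78 and 8.69 against 8.39, 8.14 and 8.47. PRL-3 5 was the lowest of these arrays; the difference was -0.43 ± 0.0951 with all arrays (adjusted p = 0.0323, limma) and -0.33 without PRL-3 5, where it still passed.

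The other 12 processome genes did not pass. UTP15 (-0.27), a member of the same early subcomplex, IMP3 (-0.14), which pairs the snoRNA with the precursor, and WDR43 (-0.09), of the early subcomplex too, lay lower in every PRL-3 array. WDR43 had the smallest spread of the 52 genes, 10.30, 10.29 and 10.31 against 10.20, 10.19 and 10.22, yet a small difference (adjusted p = 0.476, limma). NAT10, which acetylates cytidines of the ribosomal RNA, differed by -0.34, and NOP14, UTP3 and IMP4 by -0.13, -0.12 and -0.11. On the other side of 0 were UTP23 (0.17), UTP18 (0.16), MPHOSPH10 (0.14), UTP6 (0.10) and RCL1 (0.09), all with overlapping groups.

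In the later steps of small subunit maturation 0 of 5 genes passed in limma, and 1 had an unadjusted p under 0.05. All 5 differences were below 0, where 54.9% of all genes were, but LTV1 (-0.05 ± 0.2) turned to 0.091 without control 3. BYSL, bystin, gave the largest at -0.38 ± 0.151, but its arrays ranged widely, 8.15, 7.96 and 7.55 in control against 7.40, 7.68 and 7.46 with PRL-3. TSR1 (-0.13) and RRP12 (-0.11) lay lower in every PRL-3 array, while PNO1 (-0.14) and LTV1 (-0.05) overlapped.

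All 9 measured genes of large subunit assembly had a difference below 0, where 54.9% of all genes did, and 2 of them fell. The sign was not firm in all 9: WDR12 (-0.04 ± 0.131) turned to 0.077 without control 3. NIP7, a factor of large subunit processing, read 10.00, 9.96 and 9.93 in control and 9.50, 9.46 and 9.37 with PRL-3. The groups were 0.425 apart, at a difference of -0.52 ± 0.0678 (1.43-fold lower, adjusted p = 0.00378, limma). RRS1, which brings the particle of the small 5S RNA into the precursor, read 6.96, 6.88 and 6.94 against 6.47, 6.66 and 6.57, a difference of -0.36 ± 0.0732 (adjusted p = 0.0236, limma).

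NOP2, the methyltransferase known as a proliferation antigen, differed by as much as RRS1 (-0.36), but with a standard error of 0.126 it did not pass (adjusted p = 0.152, limma). NOP16 (-0.26) lay lower in every PRL-3 array. The 3 proteins of the PeBoW complex, which work together in large subunit processing, were PES1 (-0.18), BOP1 (-0.16) and WDR12 (-0.04), each with overlapping groups. MRTO4 (-0.17), which holds the place of a stalk protein, and RRP1B (-0.15) overlapped too. The second probe set of BOP1 differed by -0.07 ± 0.0963.

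Counted by arrays and not by the fit, every PRL-3 array lay below every control array in 20 of 52 genes, and above in 3 (POLR1D, TAF1D and FBL). Over all genes these shares were 12.2% below and 12.1% above. All 10 genes that fell were among the 20. The same arrays enter both counts, so this is not separate support for the calls.

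**Figure D3:**
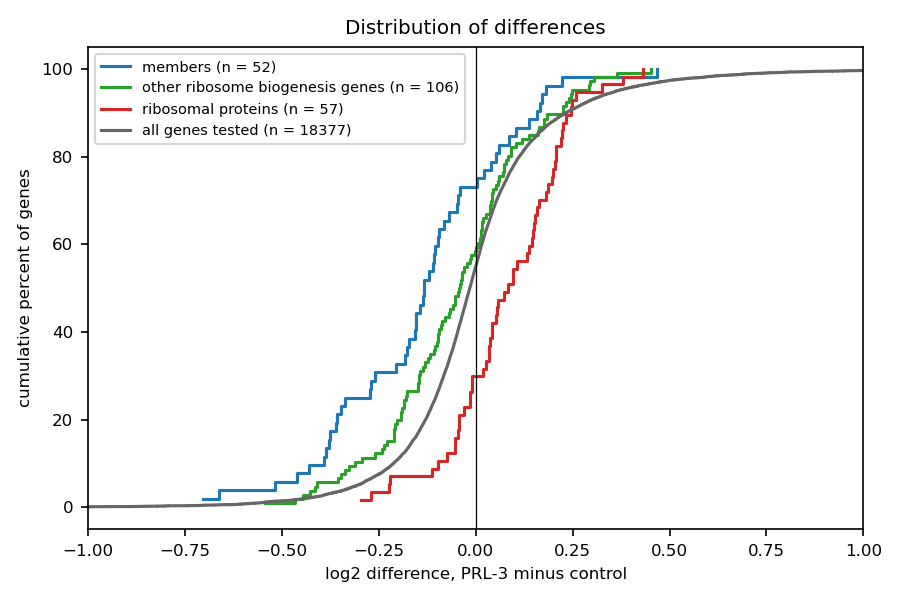
Cumulative percent of genes (y axis) by log2 difference, PRL-3 minus control (x axis, cut at -1 and 1), for the 52 genes described here ("members"), other ribosome biogenesis genes, ribosomal proteins and all genes tested. At 0 the first curve stands at 73.1%, that of ribosomal proteins at 29.8% and that of all genes at 54.9%.

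A wider list of ribosome biogenesis genes was set beside these. It was written by pathway role, but with earlier results of these data known. Of its 106 measured genes 4 fell and 1 rose. The 3.77% lower is near the 3.11% over all genes, and the median was -0.0421. At an unadjusted p under 0.05 in limma, 18 were lower and 4 higher. Over all genes those shares were 9.6% and 10.6%. Every PRL-3 array lay below every control array in 18 and above in 6, against 12.2% and 12.1% of all genes. The falls were SDAD1 (-0.47), NOL9 (-0.41), a kinase of large subunit processing, MDN1 (-0.41), the giant ATPase that remodels the early large subunit, and NOL6 (-0.35) of the processome. RIOK3, a kinase linked to late small subunit particles and to red cell maturation, rose by 0.45. Of these 5, SDAD1 passed in 4 of the 6 fits with 1 array left out and each of the others in 2.

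Further RNA polymerase I subunits and rDNA factors passed in 0 of 8 in limma (1 lower at an unadjusted p under 0.05). POLR1G (-0.23) lay lower in every PRL-3 array, POLR1H (-0.24) and POLR1F (0.09) overlapped; these 3 were named for their place in the enzyme after their values were seen. In the nuclear exosome, which trims the precursor, 0 of 13 passed in limma, and 2 had an unadjusted p under 0.05.

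The other nuclear RNA polymerases gave a reference for the fall of POLR1A and POLR1B. Of 7 subunits of RNA polymerase II and 5 shared by all 3 enzymes 0 passed in limma and 0 had an unadjusted p under 0.05. Over all genes 3.11% were called lower and 4.58% higher, so 0 calls in lists this short says little. The medians were -0.0259 for RNA polymerase II and -0.0383 for the shared subunits. Among 10 subunits of RNA polymerase III the median was -0.0362. At an unadjusted p under 0.05 in limma 3 were lower and 0 higher, where 9.6% of all genes were lower and 10.6% higher. POLR3C alone passed, with a fall of 0.55 on the log2 scale (adjusted p = 0.0197, limma). Its control arrays read 9.29, 9.32 and 8.95 and its PRL-3 arrays 8.66, 8.68 and 8.58. POLR3C passed in 2 of the 6 fits with 1 array left out (highest adjusted p = 0.0957, limma) and missed the threshold without control 1 and PRL-3 5 together (0.0564). The 2 largest subunits of RNA polymerase II, POLR2A (-0.25) and POLR2B (-0.03), overlapped. Of those of RNA polymerase III, POLR3A (-0.03) overlapped and POLR3B lay lower in every PRL-3 array at -0.2 (adjusted p = 0.19, limma). They too were named for their place in the enzyme after their values were seen. Whether the polymerases differ from one another in their response was not tested.

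Ribosomal proteins, which these factors assemble with the ribosomal RNA, had mostly positive differences. Of 57 measured genes 3 rose (RPL17, 0.43; RPS24, 0.38; RPS29, 0.33) and 0 fell, with 1 lower and 13 higher at an unadjusted p under 0.05 in limma, where 9.6% of all genes were lower and 10.6% higher. The share of 3 in 57 is near the 4.58% of all genes called higher. Their median difference was 0.0837, with 17 of 57 below 0; after quantile normalization it was 0.0169, with 25 of 57 below 0, while that of the 52 members was -0.14. Many of these genes have pseudogene copies, so single values are uncertain. With 1 array left out, RPL17 passed in 2 of the 6 fits, RPS24 in 3 and RPS29 in 1. RPS29 also missed the threshold after quantile normalization (adjusted p = 0.111, limma), after the arrays were shifted to 1 median (0.0522), with robust variances and an intensity trend (0.0838) and among genes above the median level (0.0501).

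MYC read 11.21, 11.09 and 10.66 in control and 10.40, 10.97 and 10.55 with PRL-3; the groups overlapped, at a difference of -0.35 ± 0.179 (adjusted p = 0.337, limma). With array weights MYC passed, at -0.55 (adjusted p = 0.0054, limma), in a fit that called 12.5% of all genes lower and 11.5% higher. MYC passed in 0 of the 6 fits with 1 array left out, at -0.52 to -0.23. MYCN rose by 0.56 ± 0.0761 (adjusted p = 0.0043, limma), from 6.83, 6.88 and 6.92 to 7.50, 7.49 and 7.32, and MAX was at 0.01 ± 0.0703.

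Part of the spread ran within the groups. In 16 of 52 genes control 1 and PRL-3 5 were each the highest array of their group, and in 17 each was the lowest; over all genes these shares were 23.7% and 20.9%. The first pattern held PES1, NHP2, BYSL, NOP2 and NAT10 among others, the second MPHOSPH10, LTV1, WDR12, TAF1D and NCL among others. Of the 10 genes that fell, 4 showed the first pattern (POLR1B, UBTF, UTP4 and RRS1) and 1 the second (HEATR1). MPHOSPH10, a snoRNA-binding processome protein, ranged most: 8.59, 8.97 and 9.48 in control and 9.39, 8.64 and 9.42 with PRL-3, so that control 1 and PRL-3 5 stood together below the other 4 arrays. Over the 52 genes the median deviation from the group mean lay between -0.0268 (control 3) and 0.0259 (control 1). The genes that fell had a median pooled SD of 0.0779 and the other 42 one of 0.123, against 0.106 over all genes. The test divides a difference by its spread, so genes that pass tend to have a smaller SD.

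**Figure D4:**
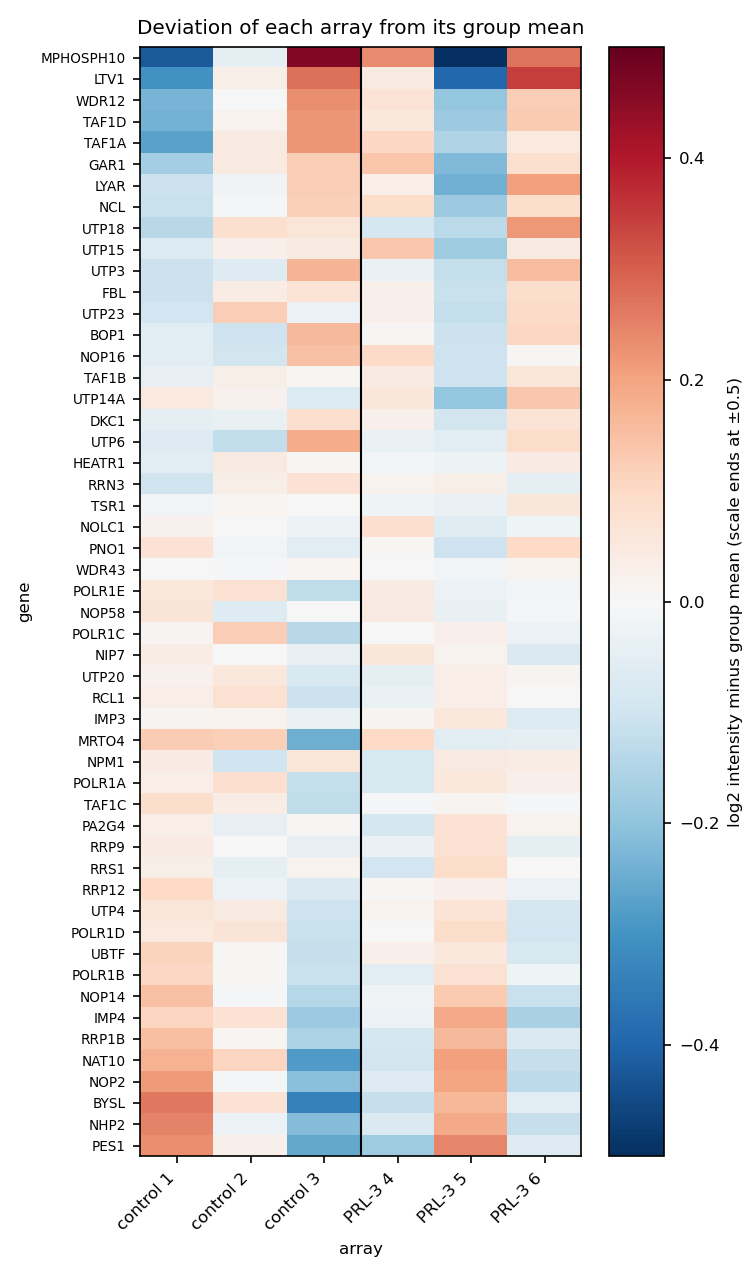
Colour gives log2 intensity minus the group mean for each of the 52 genes (y axis) in each array (x axis), with genes sorted by the sum over control 1 and PRL-3 5. The top rows (MPHOSPH10, LTV1) are low in control 1 and PRL-3 5 and high in control 3, and the bottom rows (PES1, NHP2, BYSL) run the other way.

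Of the 10 calls, 3 held and 7 were lost in at least 1 of the fits with 1 array left out, each of which has fewer samples. POLR1B, UTP20 and NIP7 passed in all 6 fits with 1 array left out, at -0.76 to -0.65, -0.70 to -0.63 and -0.55 to -0.48. POLR1A and HEATR1 passed in 4, UTP14A and NOP58 in 3, UTP4 and RRS1 in 2, and UBTF in 1. The count of genes lower was 5 without control 1, 4 without control 2, 13 without control 3, 3 without PRL-3 4, 9 without PRL-3 5 and 6 without PRL-3 6. In the same order, the count over all genes was 302, 178, 747, 199, 466 and 228, against 571 with every array, so both counts were highest without control 3 and low without control 2 or PRL-3 4. Without control 3 POLR1C (-0.34), NAT10 (-0.48) and BYSL (-0.54) passed too. The widest range of a difference among the 10 was that of UTP14A, from -0.50 to -0.33. Without control 1 and PRL-3 5 together 6 were lower and 1, TAF1D, was higher, with 409 lower and 757 higher over all genes.

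**Figure D5:**
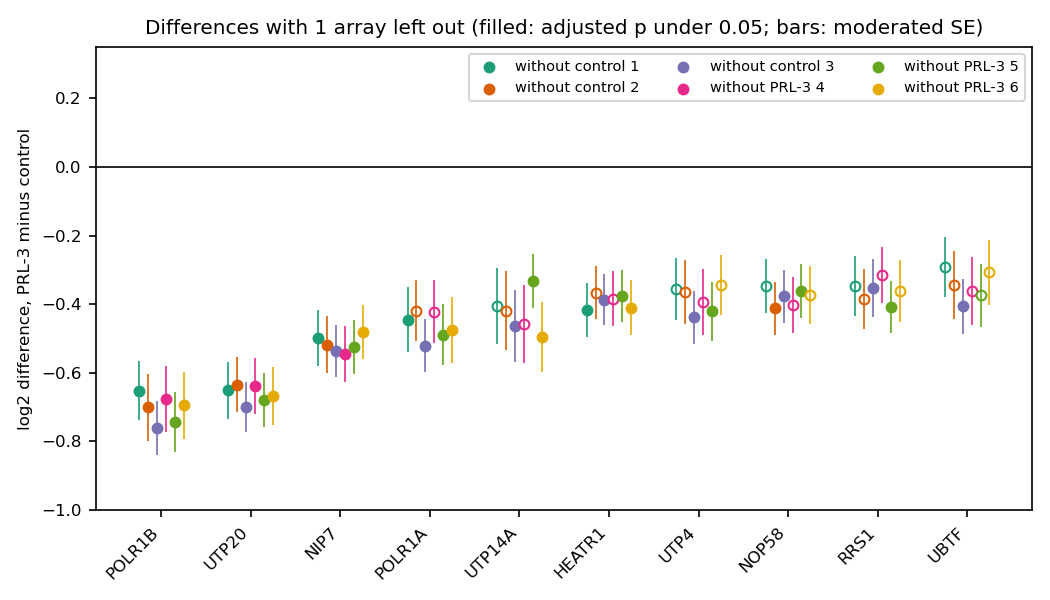
Log2 difference, PRL-3 minus control (y axis), of the 10 genes that fell, in 6 fits that each leave out 1 array, with moderated standard errors; open points missed adjusted p 0.05. All points lie below 0, and all those of POLR1B, UTP20 and NIP7 are filled.

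The transfected gene was higher in the arrays labelled PRL-3: PTP4A3 read 7.97 ± 0.0563 in control and 10.84 ± 0.0759 with PRL-3 (SD, n = 3 each; exact two-sided permutation p = 0.1, the smallest that 3 against 3 arrays allow). Median intensity ran from 89.8 to 92.9 over the arrays, and the number of arrays limits the precision. Of 8 markers of TF-1, 6 were measured (CD34, KIT, IL3RA, CSF2RA, CSF2RB and GATA1), at the 53.0 to 96.3 percentiles of all genes. KIT, the receptor of stem cell factor, rose by 1.01 ± 0.0891 (adjusted p = 0.000721, limma) and CSF2RA by 0.27 ± 0.0635 (adjusted p = 0.0407, limma). CD34 differed by -0.44 (adjusted p = 0.0882, limma) and CSF2RB by -0.57 (adjusted p = 0.104, limma), and IL3RA and GATA1 did not pass. The 4 measured lymphocyte markers lay at the 6.57 to 36.6 percentiles, with summed intensities of 216 to 240 in control and 217 to 238 with PRL-3. The 7 epithelial, fibroblast and endothelial markers ran from the 12.1 (EPCAM) to the 97.4 percentile (PECAM1, also a gene of blood cells), with sums of 2108 to 2318 in control and 1840 to 2023 with PRL-3; the part of these markers, those of TF-1 included, in the differences above was not tested.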

How the data were processed

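Total RNA (100 ng per sample, per the labels) was hybridised as biotin-labelled cDNA. The deposited values were linear intensities of 28869 probe sets in each array; since the array medians hardly differ, they were treated as normalized by the authors. The methods of summary, background correction and normalization are not given in the sources used here. Normalization between arrays hides any change common to most genes. Without detection calls in the table, dim genes were kept.

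The log2 of each intensity was taken, with an offset of 0. Symbols came from the platform annotation: 19310 probe sets had 1 symbol, 1752 several and 7807 none. The brightest probe set over all 6 arrays stood for a gene, which gave 18377 genes. The test was limma's moderated one (lmFit and eBayes, two-sided; limma 3.58.1, R 4.3.3). The test was tried on simulated data. The labels give no batch or date.

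The members, lists, alternatives and motifs were chosen with earlier results of these data known. The rule for naming genes took all members, with every array for those called and for the polymerase subunits, UBTF, RRN3, NCL, NPM1, FBL and DKC1. Of the other lists it took called genes, up to 8 for ribosome biogenesis and up to 4 for ribosomal proteins. Alternatives are listed with their effect in the closing part. Promoter sequences are those of RefSeq, GRCh38.p14. POLR1E, NOLC1, NOP58, UTP23, MPHOSPH10, RRP12, BOP1, RRS1 and RRP1B were not matched in that table. Figures were drawn with matplotlib 3.10.9.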

Additional observations from a re-analysis of the deposited data

Results flagged for a closer look

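Outside the measurement of the genes themselves, 13 probe sets carried the symbol of a member together with that of another gene. In a fit over all 28869 probe sets 2 of the 13 were higher with PRL-3 and 0 lower in limma, and 11 did not pass. The probe set listed under SNORA56 and DKC1 (8170992) read 9.73, 9.91 and 9.94 in control and 11.35, 11.29 and 11.46 with PRL-3, a difference of 1.51 ± 0.0808 (adjusted p = 0.00039, limma). That of DKC1 alone differed by 0.00. The probe set listed under SNORA8 and TAF1D (7951034) read 9.48, 9.82 and 10.07 in control and 10.86, 10.48 and 10.95 with PRL-3, a difference of 0.97 ± 0.177 (adjusted p = 0.0281, limma). That of TAF1D alone differed by 0.47. All 6 probe sets shared with TAF1D had positive differences, from 0.28 to 1.05 (SNORD5 and TAF1D). The 3 shared with RRN3 and its pseudogenes ran from -0.3 to -0.23. The probe set of SNORD56 and NOP56 differed by -0.37 (adjusted p = 0.0701, limma). That of PPAN and P2RY11 differed by -0.32 (adjusted p = 0.109, limma). Both lay lower in every PRL-3 array. The other one of DKC1, with MIR664B and SNORA36A, differed by 0.28. Which of the listed genes these probe sets read was not tested.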

How the results depend on the processing

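None of the 10 genes that fell changed sign in any alternative. Quantile normalization, a shift of the arrays to 1 median, robust variances with an intensity trend, the 2 filters on dim genes and averaging over the probe sets of a gene gave 9 or 10 members lower and 0 higher; among the 9188 genes above the median level 9 of 48 members were lower, against 4.96% of these genes. Array weights gave 21 lower and 3 higher, and 24 lower and 10 higher in the wider list, where the weights come from the spread of the arrays tested; over all genes they gave 2303 lower (12.5%) and 2122 higher (11.5%), against 571 and 842. The unequal-variance test gave 0 lower and 0 higher in both lists, where 14 members were lower and 1 higher at an unadjusted p under 0.05; over all genes it called 4 lower and 7 higher, and 1272 (6.92%) and 1391 (7.57%) unadjusted, so its 0 says nothing about the lists. Quantile normalization gave 7 lower in the wider list; the cause was not tested. With 1 array left out, and so fewer samples, 3 (without PRL-3 4) to 13 (without control 3) members were lower and 0 to 1 higher, and in the wider list 0 to 9 were lower and 0 to 2 higher; over all genes 178 to 747 were lower and 388 to 792 higher. The median difference of members stayed between -0.154 and -0.119 in these fits. Without control 1 and PRL-3 5 together 6 members were lower and 1 higher.

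Signs turned in 11 members, none of which passed in limma, and in MAX. Over the fits with 1 array left out the differences ran from -0.02 to 0.052 for NOLC1, -0.029 to 0.05 for DKC1, -0.003 to 0.14 for NCL, -0.01 to 0.081 for NPM1, -0.003 to 0.099 for POLR1E, -0.2 to 0.044 for TAF1A and -0.19 to 0.004 for GAR1. They ran from -0.22 to 0.15 for LTV1, -0.16 to 0.077 for WDR12, -0.16 to 0.076 for NHP2, -0.074 to 0.39 for MPHOSPH10 and -0.02 to 0.048 for MAX. Quantile normalization turned NOLC1 (-0.032), DKC1 (-0.06) and MAX (-0.006), array weights turned LTV1 (0.051) and WDR12 (0.031), and MAX was at -0.004 without control 1 and PRL-3 5. The cause was not tested. No paired analysis was possible because the groups share no replicate number.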
